A study of Mus musculus with 7 samples.

Results

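The MAP kinase cascade genes were selected by name: every gene whose symbol in the array annotation is that of a MAP kinase (Mapk), a kinase of the 3 tiers above it (Map2k, Map3k, Map4k), or a numbered MAPK-activated kinase below it (Mapkapk, Mknk). This gave 41 genes among 22139 transcript clusters tested, each measured by 1 transcript cluster, the group of probes that reports a gene on the Clariom S Mouse array. Some other genes of the cascade, such as Map2k7, Map3k10, Map4k2, Map4k3 and Mapkapk5, were not analysed here. RNA was taken on day 14 after allo-HCT from splenic CD45+CD11b+ cells, a myeloid gate, of 4 recipients given the ROCK1/2-inhibitor Y-27632 and 3 recipients given vehicle, with 1 array per mouse. The question was how gene expression in these cells differs when ROCK1 and ROCK2 are inhibited during acute graft-versus-host disease.

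The 4 inhibitor mice (R1 to R4) were injected intraperitoneally for 10 days, starting on day 4, with Y-27632 at 8 mg/kg in 100 µl, and the 3 vehicle mice (V2 to V4) with 100 µl of PBS on the same days. All 7 mice were wild-type BALB/cAnN recipients that had been irradiated 2 times with 5 Gy and had received 5000000 bone marrow cells and 300000 T cells from C57BL6/N donors. Every mouse compared here therefore carried an allogeneic graft, and no untransplanted or syngeneic mouse was part of the comparison. The methods give an age range for the mice of the whole study and no age for these 7. A field of the labels calls the samples CXCL12-abundant reticular cells, whereas the others name CD11b+ CD45+ spleen cells. Itgam, which encodes CD11b, had log2 intensities of 8.56, 9.15, 9.07 and 9.06 in inhibitor mice and 9.39, 9.08 and 9.66 in vehicle mice, while Lepr, a marker of such reticular cells, lay between 1.48 and 1.56 in inhibitor mice and between 1.45 and 1.69 in vehicle mice, below background in both groups. Cxcl12 itself lay between 1.82 and 2.58 in inhibitor mice and between 1.98 and 2.45 in vehicle mice. Its means of 2.26 and 2.25 were above the background level of 1.96 in both groups. Of 9 endothelial and stromal markers, Lepr and Cxcl12 among them, 5 exceeded background in at least 1 group.

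MAP kinases are the last of a chain of kinases in which each tier phosphorylates and switches on the next, from MAP4K and MAP3K through MAP2K to the MAP kinase itself. ERK is activated mainly by growth factor and antigen receptors, JNK and p38 by cell stress, Toll-like receptors and inflammatory cytokines. In neutrophils and monocytes, p38 and the kinases it activates are known for their part in cytokine production, degranulation and migration. The cascade runs by phosphorylation, so mRNA levels describe how much of each transcript was present and not how active the kinases were.

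Values are log2 intensities, on which a difference of 1 is a 2-fold difference, and changes are inhibitor minus vehicle. A transcript cluster was called changed at a limma p-value below 0.05 after Benjamini-Hochberg adjustment over all transcript clusters. Of the 41 genes, 36 exceeded a background level of 1.96 in at least 1 group, set at the 95th percentile of 1414 olfactory and vomeronasal receptor transcript clusters. The 5 others were Map3k13, Map3k19, Mapk4, Mapk8 and Mapk10, the last of which encodes the JNK isoform known mainly from brain. Because the RNA of many cells was pooled on each array, fewer cells of a type and less RNA per cell cannot be told apart.

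In inhibitor-treated mice, 3 of the 41 genes were lower and 0 were higher than in vehicle-treated mice. The 3 were Map2k3, which encodes a kinase that switches on p38, Mapk13, which encodes p38 delta, and Mknk2, which encodes a kinase activated by ERK and p38. The 3 genes are 7.32% of the 41, while 1.17% of all transcript clusters were called lower and 1.06% higher. At an unadjusted limma p under 0.05, 13 genes were lower and 3 higher (31.7% and 7.32% of the genes), against 8.5% and 6.76% of all transcript clusters. In 11 genes all inhibitor mice lay below all vehicle mice, and in 2 all lay above, against 7.03% and 6.22% of all transcript clusters. The median log2 fold change of the 41 genes was -0.12 with 24 genes below 0, against a median of 0.00 and 49.1% below 0 over all transcript clusters. Restricting both sides to what exceeded background, a comparison chosen after the values were seen, gave 36 genes and 14369 transcript clusters. Of these 36 genes, 3 were called lower (8.33%, against 1.81% of these transcript clusters), and at an unadjusted p under 0.05 13 were lower and 3 higher (36.1% and 8.33%, against 13% and 10.1%). Without overlap, 11 of them were lower and 1 higher (30.6% and 2.78%, against 10.1% and 7.54%), and 22 had a log2 fold change below 0, against 53.2%.

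**Figure D1:**
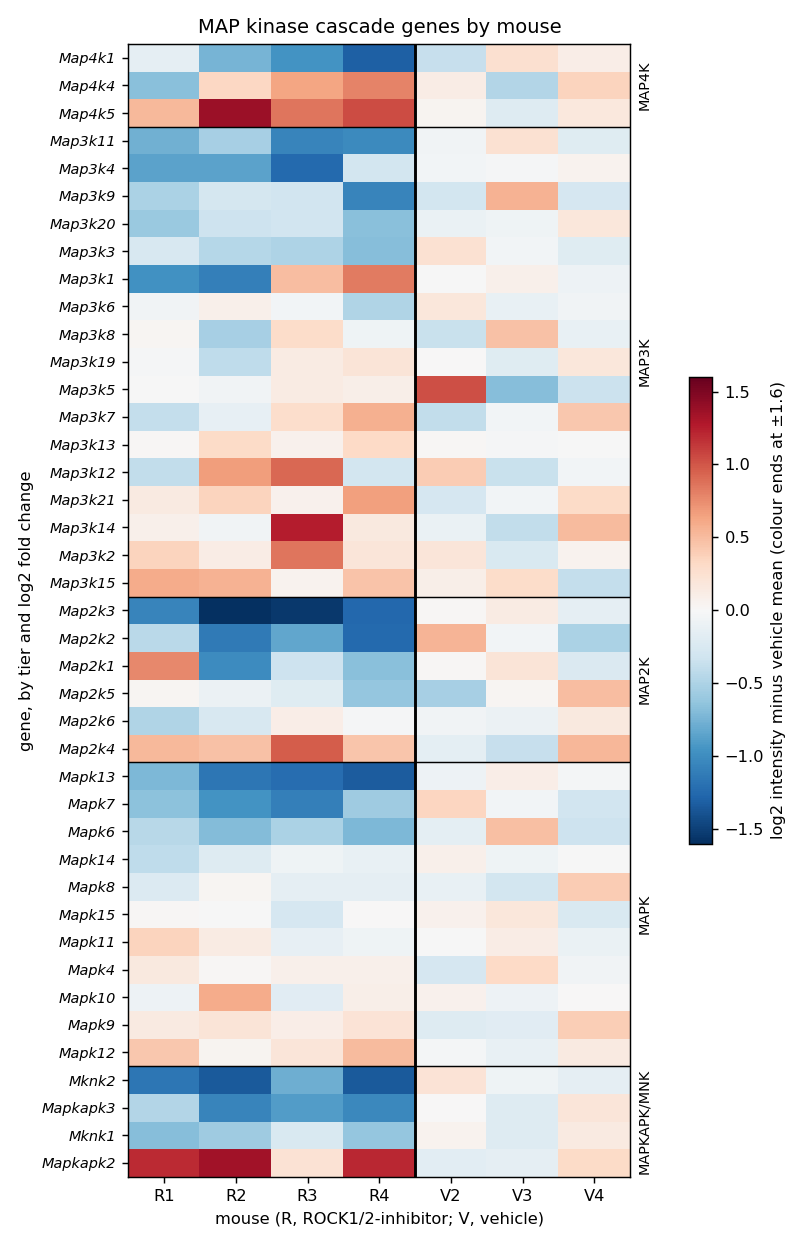
Log2 intensity minus the vehicle mean for each of the 41 genes (rows, by tier and log2 fold change) in each mouse (columns, R for inhibitor and V for vehicle), with colours ending at ±1.6. Map2k3, Mapk13 and Mknk2 are below the vehicle mean in all 4 inhibitor mice, and Map4k5 and Mapkapk2 above it.

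Among the MAP2K genes, Map2k3 (MKK3) had the most negative fold change. Its log2 intensity was 3.03, 2.26, 2.53 and 2.82 in inhibitor mice R1 to R4, against 4.10, 4.21 and 3.93 in vehicle mice V2 to V4. The highest inhibitor mouse stayed below the lowest vehicle mouse, and the spread among inhibitor mice was wider. Map2k3 averaged 2.66 ± 0.33 (SD, n = 4) in inhibitor mice and 4.08 ± 0.14 (SD, n = 3) in vehicle mice, which is a log2 difference of -1.42 (standard error 0.20, 95% confidence interval -1.87 to -0.97, adjusted p = 0.0182 from limma), or 2.68-fold lower. Map2k6 (MKK6), which encodes the other dedicated p38 activator, had 1.80, 2.03, 2.40 and 2.27 in inhibitor mice and 2.22, 2.19 and 2.44 in vehicle mice. These values overlapped and lay close to background, with a log2 fold change of -0.16 (95% confidence interval -0.56 to 0.24, adjusted p = 0.771 from limma).

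Map2k2 (MEK2), which activates ERK, had 4.81, 4.10, 4.41 and 3.99 in inhibitor mice and 5.78, 5.20 and 4.73 in vehicle mice, with V4 lower than R1. Its log2 fold change of -0.91 did not pass the test (adjusted p = 0.136 from limma). Map2k1 (MEK1), its partner in ERK activation, had 5.50, 3.71, 4.39 and 4.06 in inhibitor mice and 4.75, 4.93 and 4.50 in vehicle mice. R1 was the highest of all 7 mice for Map2k1 and the other inhibitor mice were below every vehicle mouse, which left a log2 fold change of -0.31 (adjusted p = 0.790 from limma). Map2k4 (MKK4), an activator of JNK, had 2.75, 2.70, 3.20 and 2.67 in inhibitor mice and 2.07, 1.86 and 2.76 in vehicle mice, a log2 fold change of 0.60 (adjusted p = 0.255 from limma). Here R1, R2 and R4 fell between V2 and V4 and only R3 exceeded all vehicle mice.

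Of the p38 genes themselves, Mapk13 was called. Its log2 intensity was 6.66, 6.23, 6.16 and 6.04 in inhibitor mice, against 7.30, 7.49 and 7.35 in vehicle mice. The groups did not overlap, and R1 was the inhibitor mouse nearest to the vehicle mice. Mapk13 averaged 6.27 ± 0.27 (SD, n = 4) in inhibitor mice and 7.38 ± 0.10 (SD, n = 3) in vehicle mice, which is a log2 difference of -1.11 (standard error 0.18, 95% confidence interval -1.50 to -0.71, adjusted p = 0.0232 from limma), or 2.15-fold lower. Mapk14 encodes p38 alpha, the broadly expressed isoform, and is a neighbour of Mapk13 on chromosome 17. Mapk14 had 6.12, 6.33, 6.46 and 6.41 in inhibitor mice and 6.62, 6.46 and 6.52 in vehicle mice. Its log2 fold change was -0.20 (95% confidence interval -0.53 to 0.13, adjusted p = 0.616 from limma), and R3 lay above V3. The remaining isoforms, Mapk11 (p38 beta) and Mapk12 (p38 gamma), had log2 fold changes of 0.07 and 0.30 at low intensity and were not called.

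Outside the p38 isoforms, none of the MAP kinase genes passed the test. Mapk7, which encodes ERK5, had 4.06, 3.76, 3.62 and 4.15 in inhibitor mice, against 5.06, 4.68 and 4.41 in vehicle mice, with no overlap and a log2 fold change of -0.82 (adjusted p = 0.0757 from limma). Mapk6, which encodes the atypical kinase ERK3, had 2.74, 2.48, 2.67 and 2.47 in inhibitor mice, against 3.03, 3.67 and 2.86 in vehicle mice, also without overlap (log2 fold change -0.59, adjusted p = 0.197 from limma). Mapk9 (JNK2) was the JNK gene that exceeded background. It had 4.83, 4.89, 4.78 and 4.90 in inhibitor mice and 4.47, 4.49 and 5.07 in vehicle mice, a log2 fold change of 0.17 (95% confidence interval -0.23 to 0.57). Mapk8 (JNK1) was not above background in either group.

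Below the MAP kinases, the MAPK-activated kinases went in both directions. Mknk2 (MNK2), which phosphorylates the cap-binding translation factor eIF4E, had 3.74, 3.55, 4.11 and 3.54 in inhibitor mice, against 5.11, 4.81 and 4.74 in vehicle mice. All inhibitor mice were below all vehicle mice, R3 least so. Mknk2 averaged 3.73 ± 0.27 (SD, n = 4) in inhibitor mice and 4.89 ± 0.20 (SD, n = 3) in vehicle mice, which is a log2 difference of -1.15 (standard error 0.19, 95% confidence interval -1.57 to -0.74, adjusted p = 0.0234 from limma), or 2.23-fold lower. Mknk1 (MNK1), which has the same substrate, had 3.67, 3.78, 4.11 and 3.73 in inhibitor mice, against 4.41, 4.14 and 4.50 in vehicle mice. These groups did not overlap either, though R3 and V3 nearly met, and the log2 fold change of -0.53 was not called (adjusted p = 0.151 from limma).

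The p38 substrates Mapkapk3 (MK3) and Mapkapk2 (MK2), related kinases of which MK2 is known for stabilizing cytokine mRNAs, had fold changes of opposite sign. Mapkapk3 had 6.16, 5.57, 5.73 and 5.59 in inhibitor mice, against 6.63, 6.42 and 6.82 in vehicle mice, a log2 fold change of -0.86 that missed the threshold (95% confidence interval -1.29 to -0.44, adjusted p = 0.0515 from limma). Mapkapk2 had 4.52, 4.67, 3.56 and 4.54 in inhibitor mice, against 3.16, 3.18 and 3.63 in vehicle mice. Its log2 fold change was 0.998 (95% confidence interval 0.38 to 1.61, adjusted p = 0.0989 from limma), and R3 lay within the range of the vehicle mice while the others were above it.

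**Figure D2:**
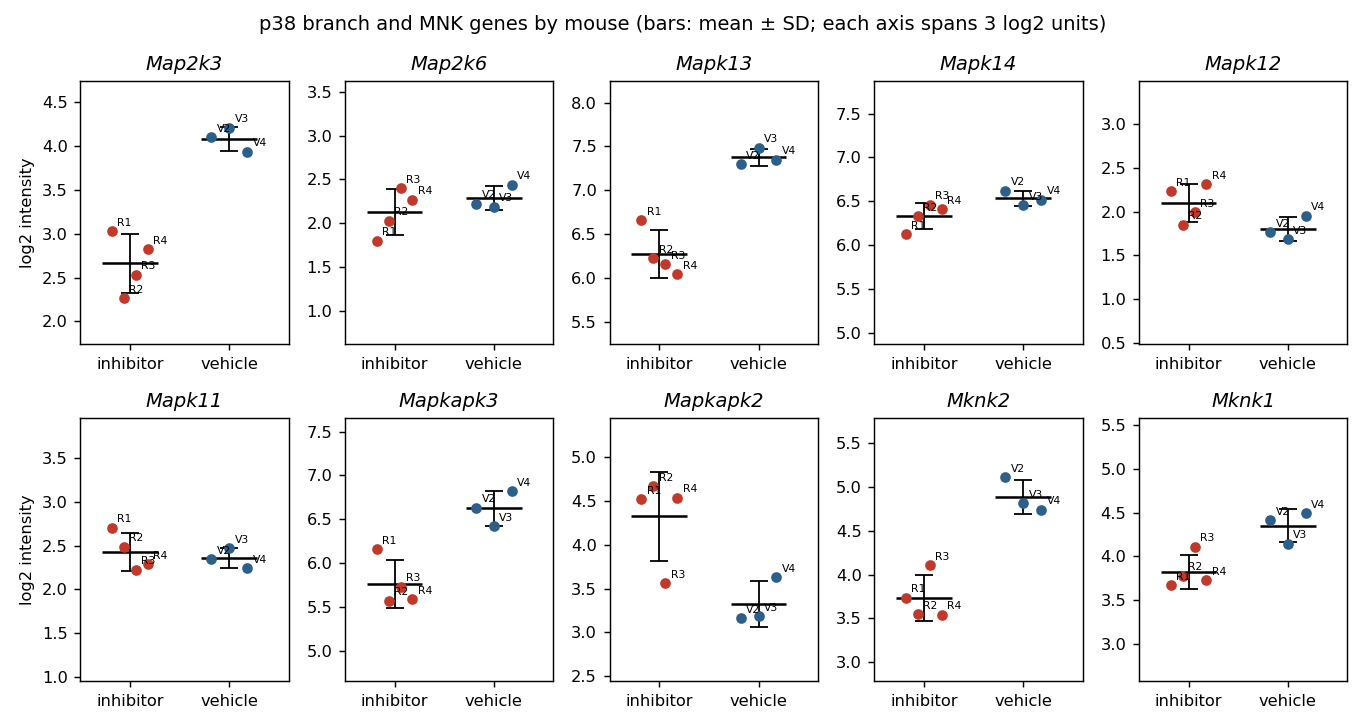
Log2 intensity of the MAP2K, p38, MAPKAPK and MNK genes in each inhibitor mouse (red, left) and vehicle mouse (blue, right), with bars for the mean ± SD and each axis spanning 3 log2 units. Map2k3, Mapk13 and Mknk2 separate the groups by the widest margins, while Map2k6, Mapk14 and Mapk11 overlap.

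For 5 pairs of related kinases, chosen after their values were seen, the difference between the partners' log2 values within each mouse was compared by a two-sided exact permutation test over the 35 ways to divide 7 mice into 4 and 3. Mapkapk3 relative to Mapkapk2 was lower by a log2 difference of -1.86 in inhibitor mice, and Mknk2 relative to Mknk1 by -0.63, each with the smallest p that so few mice allow (exact p = 0.0286). Map2k3 relative to Map2k6 differed by -1.26 and Mapk13 relative to Mapk14 by -0.90 (both exact p = 0.0571), and Map2k2 relative to Map2k1 by -0.60 (exact p = 0.143). After Benjamini-Hochberg adjustment over the 5 pairs, p was 0.0714 for the first 4 and 0.143 for the last, so that no pair passed. With 7 mice a pair that alone reached the smallest p would have an adjusted p of 0.143. Because the pairs were also picked from these same values, the test does not show whether partners changed alike or unequally.

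The sequences upstream of the 3 called genes are shown because these genes were lower together. They are taken from RefSeq (GRCm38.p6), run 5′ to 3′ on the strand of the gene and end at the base before the annotated gene start, and capitals mark GC boxes (GGGCGG or its complement CCGCCC, the core that SP/KLF factors bind). Map2k3 lies on the plus strand at chr11:60932054-60952811, Mapk13 on the plus strand at chr17:28769286-28778704 and Mknk2 on the minus strand at chr10:80665318-80676293. The windows are chr11:60931804-60932053 for Map2k3, chr17:28769067-28769285 for Mapk13 and chr10:80676294-80676543 for Mknk2.
Map2k3: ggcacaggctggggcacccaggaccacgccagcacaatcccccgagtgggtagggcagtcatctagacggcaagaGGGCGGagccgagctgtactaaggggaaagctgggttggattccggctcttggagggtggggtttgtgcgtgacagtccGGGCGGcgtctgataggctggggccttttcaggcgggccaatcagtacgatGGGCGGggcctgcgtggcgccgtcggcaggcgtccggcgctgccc
Mapk13: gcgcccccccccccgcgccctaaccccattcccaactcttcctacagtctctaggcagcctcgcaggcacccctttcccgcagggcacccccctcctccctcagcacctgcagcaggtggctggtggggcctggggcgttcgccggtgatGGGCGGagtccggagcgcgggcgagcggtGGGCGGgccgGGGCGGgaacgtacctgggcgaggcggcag
Mknk2: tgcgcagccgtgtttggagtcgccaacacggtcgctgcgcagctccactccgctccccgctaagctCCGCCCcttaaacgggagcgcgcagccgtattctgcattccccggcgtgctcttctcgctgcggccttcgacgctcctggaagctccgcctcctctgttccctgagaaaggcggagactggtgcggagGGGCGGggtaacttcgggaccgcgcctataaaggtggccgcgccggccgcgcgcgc
Map2k3 and Mapk13 had 3 GC boxes each and Mknk2 had 2, in windows of 67.6%, 74.4% and 68.4% G and C. A GC box on either strand was present in 23 of the 34 cascade genes with a matched window (67.6%), against 35.4% of 27025 genes. These 27025 were all genes with a window, not limited to genes on the array or above background here. The 2 shares therefore do not show whether the cascade genes differ from other genes expressed in these cells. This is a description of the letters, with motifs chosen after the called genes were known. Of 4 further motifs searched on both strands, the AP-1 site TGACTCA was in 0 of the 34 (5.16% of all genes), the CRE TGACGTCA in 1 (1.77%), the PU.1 site GAGGAAGT in 2 (2.79%) and the C/EBP site TTGCNNAA in 3 (10.8%), and none of them was in the 3 windows printed.

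In the upper tiers no gene was called by limma. At an unadjusted p under 0.05, 4 of 17 MAP3K genes were lower and 0 higher. Of only 3 MAP4K genes, 1 was lower and 1 higher at that threshold. Over all transcript clusters the shares were 8.5% lower and 6.76% higher. Map3k11 (MLK3), a mixed-lineage kinase upstream of JNK, had 2.21, 2.43, 1.92 and 1.95 in inhibitor mice, against 2.92, 3.21 and 2.77 in vehicle mice. The groups did not overlap, the inhibitor values were near background, and the log2 fold change was -0.84 (adjusted p = 0.0513 from limma). Map3k4 (MEKK4), which GADD45 proteins bind, had 2.04, 2.04, 1.66 and 2.60 in inhibitor mice, against 2.85, 2.88 and 2.96 in vehicle mice (log2 fold change -0.81, adjusted p = 0.0849 from limma). Map3k20 (ZAK), a sensor of stalled ribosomes, and Map3k3 (MEKK3), which activates the ERK5 kinase MEK5, had log2 fold changes of -0.47 each, with no overlap between the groups (adjusted p = 0.184 for Map3k20 and 0.210 for Map3k3 from limma).

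The MAP3K genes best known from inflammatory signaling had fold changes near 0. Map3k7 (TAK1), which acts below Toll-like, IL-1 and TNF receptors, had 3.47, 3.71, 4.13 and 4.41 in inhibitor mice and 3.45, 3.80 and 4.28 in vehicle mice, a log2 fold change of 0.09 (95% confidence interval -0.52 to 0.69). Map3k8 (TPL2), which links Toll-like receptors to ERK, had a log2 fold change of -0.07 (95% confidence interval -0.63 to 0.49). Map3k5 (ASK1), activated by oxidative stress, lay between 3.27 and 3.46 in all inhibitor mice, whereas vehicle mice had 4.35, 2.64 and 2.99, with a log2 fold change of 0.04 (95% confidence interval -0.74 to 0.83). For Map3k5 the scatter among vehicle mice sets the width of the interval, and for Map3k7 and Map3k8 both groups spanned similar ranges.

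Of the 3 MAP4K genes, Map4k5 had 2.62, 3.46, 2.96 and 3.14 in inhibitor mice, against 2.14, 1.89 and 2.27 in vehicle mice. All inhibitor mice were above all vehicle mice, and the log2 fold change of 0.95 (95% confidence interval 0.47 to 1.42) missed the threshold (adjusted p = 0.0544 from limma). Map4k1 (HPK1), a kinase that restrains lymphocyte receptor signaling, had 4.64, 4.04, 3.82 and 3.48 in inhibitor mice, against 4.42, 5.03 and 4.89 in vehicle mice, where R1 exceeded V2 (log2 fold change -0.79, adjusted p = 0.192 from limma). The 17 cascade genes outside the rule for named genes, Mapk11 and Mapk12 among them, had log2 fold changes between -0.54 and 0.42 and adjusted p of at least 0.399.

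**Figure D3:**
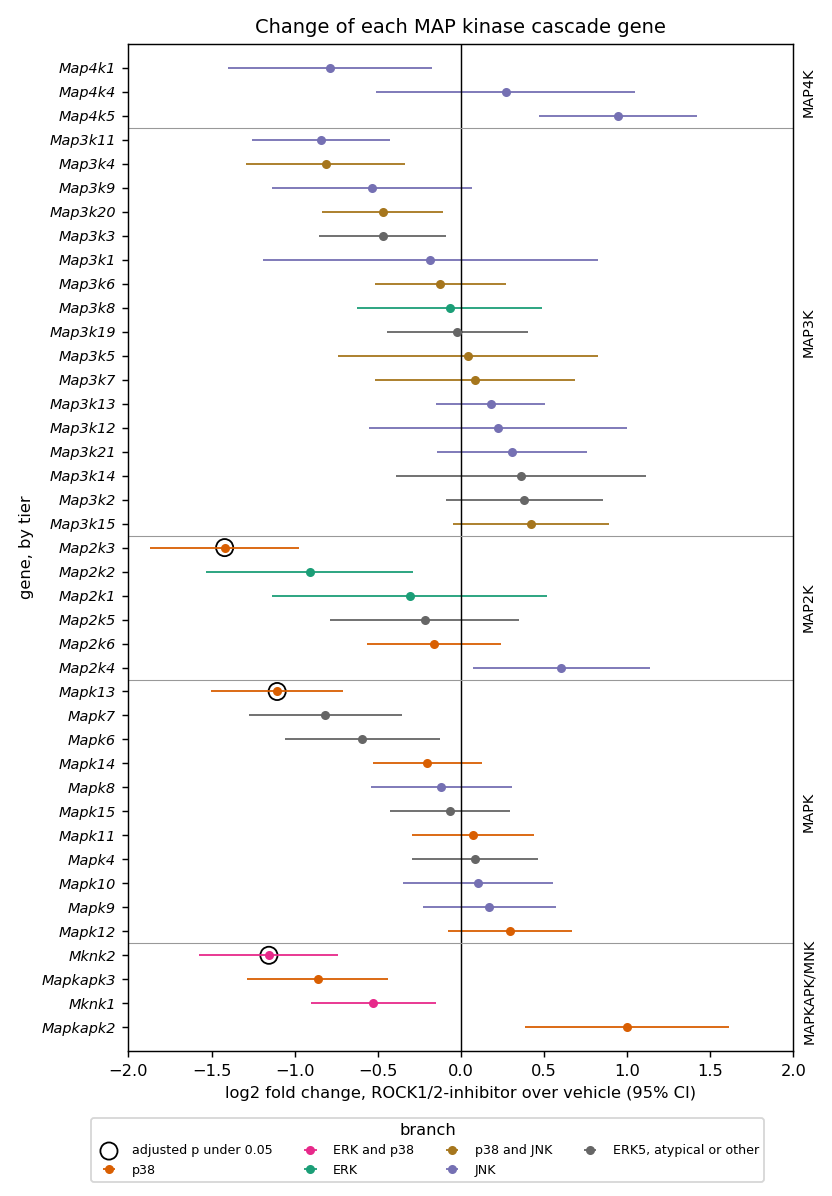
Log2 fold change of inhibitor over vehicle for each gene, with its 95% confidence interval, grouped by tier and coloured by branch; circles mark an adjusted p under 0.05. The 3 circled genes have log2 fold changes of -1.42, -1.15 and -1.11, and genes with positive values include Mapkapk2 at 0.998 and Map4k5 at 0.95.

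By tier, the median log2 fold change was 0.27 for the 3 MAP4K genes, -0.02 for the 17 MAP3K genes, -0.26 for the 6 MAP2K genes, -0.07 for the 11 MAP kinase genes and -0.69 for the 4 MAPKAPK and MNK genes. The MAP2K, MAP kinase and MAPKAPK/MNK tiers held 1 called gene each. By branch, the median was -0.18 for the 8 p38 genes, -0.31 for the 3 ERK genes and 0.17 for the 13 JNK genes. Of the 8 p38 genes, 2 were called lower and 0 higher, against 1.17% and 1.06% of all transcript clusters, and 3 were lower and 1 higher at an unadjusted p under 0.05, against 8.5% and 6.76%. Of the 13 JNK genes 0 were called by limma in either direction, with 2 lower and 2 higher at an unadjusted p under 0.05. The 6 MAP3K genes that feed both p38 and JNK had a median of -0.04, and the 4 genes of the ERK5 branch -0.34. No test was made between tiers or branches.

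By mouse, the mean deviation of the 41 genes from the vehicle mean was -0.17 in R1, -0.22 in R2, -0.12 in R3 and -0.19 in R4, against 0.00 in V2, -0.03 in V3 and 0.03 in V4. Among the 36 genes above background, 17 or 18 lay below all vehicle mice in each inhibitor mouse (47.2% to 50%) and 6 to 8 lay above all of them (16.7% to 22.2%). Of the 14369 transcript clusters above background, 28.1% to 36.1% lay below all vehicle mice and 26.7% to 28.8% above all of them, depending on the inhibitor mouse. The 8 p38 genes averaged -0.14 in R1, -0.37 in R2, -0.41 in R3 and -0.26 in R4, and the 6 MAP2K genes -0.11 in R1, -0.64 in R2, -0.30 in R3 and -0.56 in R4. R1 was thus the inhibitor mouse nearest to the vehicle mice in both groups of genes, and it was so for Map2k3 and Mapk13 singly. The 13 JNK genes averaged -0.19 in R1 and between 0.04 and 0.13 in the other inhibitor mice.

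Genes around the cascade were read from 6 lists of regulators, partners and targets, 123 measured genes in all, with a median log2 fold change of 0.00. Of these, 7 (5.69%) were called lower and 0 higher. The shares were 1.17% and 1.06% of all transcript clusters, and 1.81% and 1.63% of those above background, where 114 of the 123 genes lay. At an unadjusted limma p under 0.05, 18 were lower and 10 higher (14.6% and 8.13%). The shares were 8.5% and 6.76% of all transcript clusters, and 13% and 10.1% of those above background. Among 20 genes of RAS and RAF signaling, 3 were lower: Shc1, the adaptor that couples receptors to RAS, at -1.27 (adjusted p = 0.0480), Rasal3, a RAS GTPase-activating protein of blood cells, at -1.09 (0.0475), and Rasgrp2, an exchange factor for RAP1, at -0.66 (0.0486 from limma). The RAS and RAF list as a whole had a median log2 fold change of 0.09, with 14 of its 20 genes above 0. Without overlap, 4 of these 20 were lower and 2 higher (20% and 10%, against 7.03% and 6.22% of all transcript clusters). Of 16 MAP kinase phosphatases, Ptpn7, a phosphatase of blood cells that acts on ERK and p38, was lower. It had 3.67, 2.79, 3.43 and 2.56 in inhibitor mice, against 4.76, 4.49 and 4.97 in vehicle mice, a log2 fold change of -1.63 (adjusted p = 0.0269 from limma). Among 25 kinases and factors listed as acting below the MAP kinases, not all of them direct substrates, Srf was lower at -0.97 (adjusted p = 0.0284 from limma). Srf encodes a transcription factor of the early response. Myc was the called gene of 20 ERK feedback and target genes (-0.87, adjusted p = 0.0371 from limma) and Rac2, a small GTPase of blood cells, that of 20 upstream receptors and adaptors (-1.17, adjusted p = 0.0390 from limma). Of 25 scaffolds and partners 0 were called by limma, with 2 lower and 2 higher at an unadjusted p under 0.05.

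Markers of myeloid cell types differed between the same mice. Of all transcript clusters, 1.17% were called lower and 1.06% higher. Of 8 measured genes on a list for neutrophil primary granules, which immature neutrophils make, 4 were lower (Fcnb, Mpo, Prtn3 and Cebpe) and 0 higher. The mean log2 intensity of the list was 5.00 to 6.14 in inhibitor mice and 6.56 to 6.97 in vehicle mice. Cebpe encodes a transcription factor and Ms4a3 a membrane protein, so the list is not of granule proteins alone. Of 12 genes on a list for secondary granules, 4 were lower (Ltf, Cd177, Itgb2l and Padi4) and 0 higher. The mean of the list was 8.95 to 9.25 in inhibitor mice and 9.70 to 9.90 in vehicle mice. Padi4 encodes an enzyme of the nucleus and Ltb4r1 a receptor. The 8 not called included Lcn2, Ngp, Camp and Mmp8, with log2 fold changes of -0.22, -0.15, -0.23 and 0.06. Of 11 mature neutrophil genes 3 were higher and 1 lower (8.36 to 8.78 in inhibitor mice and 8.11 to 8.31 in vehicle mice). The 3 higher were Stfa2l1, Stfa2 and Clec4d and the lower was Mmp25, while S100a8, Cxcr2, Csf3r and Il1r2 had log2 fold changes of -0.01 to 0.07. Of 10 inflammatory monocyte genes 3 were higher (Ms4a4c, Ifi204 and Clec4a3) and 0 lower (6.41 to 6.58 in inhibitor mice and 5.70 to 6.24 in vehicle mice). Ly6c2, Fn1, F13a1 and Csf1r, at -0.16 to 0.28, were not called. Among inhibitor mice, R1 had the highest mean of the primary granule list, 6.14. R1 was also the nearest to vehicle for Map2k3 and Mapk13, whereas for Mknk2 the nearest was R3 (4.11, against 3.74 in R1). The part of these cell markers in the lower Map2k3, Mapk13 and Mknk2 was not tested. Of 8 T cell, 6 B cell and 7 NK cell markers, 0 were called by limma (1 NK cell marker was higher at an unadjusted p under 0.05), and 4, 5 and 4 of them were not above background, Cd3e, Cd3g, Cd79a and Ms4a1 included. The mean log2 intensity of the T cell markers was 2.01 to 2.15 in inhibitor mice and 1.93 to 2.19 in vehicle mice, and that of the B cell markers 1.64 to 1.95 in inhibitor mice and 1.64 to 1.71 in vehicle mice.

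**Figure D4:**
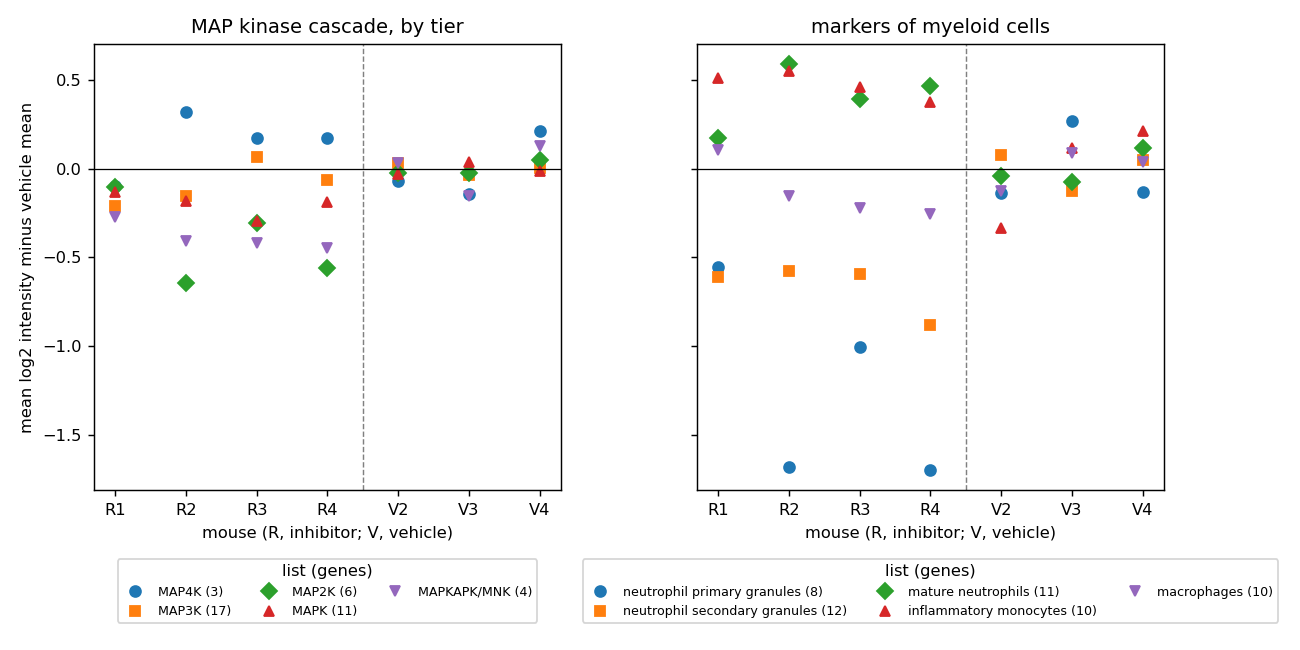
Mean log2 intensity minus the vehicle mean in each mouse (R, inhibitor; V, vehicle), for the tiers of the cascade (left) and for lists of myeloid markers (right), with the number of genes in parentheses. The means of the primary and secondary granule lists lie below the vehicle mean in all 4 inhibitor mice. So do those of the MAP2K, MAP kinase and MAPKAPK/MNK tiers.

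The calls of Map2k3, Mapk13 and Mknk2 depended on which mice were in the fit. Without R2, R3, R4, V2 or V3, 0 of the 41 genes were called, the adjusted limma p of these 3 genes lay between 0.0531 and 0.100, and 14 to 16 genes had an unadjusted p under 0.05, while without R1 5 genes were lower and 1 higher, and without V4 the same 3 genes were called. In all 7 fits that left out a mouse the 3 genes stayed lower in inhibitor mice, with log2 fold changes of -1.54 to -1.29 for Map2k3, -1.23 to -1.03 for Mapk13 and -1.28 to -1.04 for Mknk2.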

How the data were processed

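CD45+CD11b+ spleen cells of 7 mice (4 ROCK1/2-inhibitor, 3 vehicle) were measured on Clariom S Mouse arrays. The log2 intensities were deposited by the authors after Robust Multi-Array Average normalization (oligo) and a summary of probes by gene. Tool versions and the genome build are not given in the sources used here, and steps before the deposited values, which include quantile normalization, were not repeated. Array medians lay between 2.14 and 2.19. The methods name a miRNeasy kit for RNA and the labels a PicoPure kit.

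Of 22203 rows, 22139 are transcript clusters; inhibitor was tested against vehicle in limma 3.58.1 under R 4.3.3 (lmFit, then eBayes, without covariates, two-sided, Benjamini-Hochberg adjustment over all of them, threshold 0.05), as the methods state. The platform annotation gave 1 symbol for 19527 of them. The other 2612 had no symbol or more than 1 and were not used to select genes by name. The symbols of all 41 genes were unchanged in RefSeq GRCm38.p6. Promoter windows came from RefSeq and stop at the gene start. Tables and plots used Python 3.11.15, pandas 2.3.3 and matplotlib 3.10.9. The fit was tested on simulated data.

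Named genes are those called, those with an unadjusted p under 0.05, up to 2 genes of each tier with the smallest p, canonical members of each branch, and called genes of the pathway lists. Mapk11, Mapk12 and markers were named beside them. The members and lists were chosen with earlier results of these data known. Alternatives were a trended and robust variance, array weights, other normalizations and centring, filters on rows, the replicate number as a block, least squares without shrinkage and leaving out each mouse. The 7 arrays limit the precision.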

Additional observations from a re-analysis of the deposited data

Results flagged for a closer look

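In the 4 inhibitor mice, 36 values (named genes and the means of tiers and branches) were examined for a mouse far from the others, by the gap to the nearest mouse over the whole range, against Dixon's critical value for 4 samples. Chance passes about 1 in 20 such groups. Mapkapk2 had a ratio of 0.866, because R3 had a log2 intensity of 3.56 and the other inhibitor mice 4.52 to 4.67. Map2k4 had a ratio of 0.847, because R3 had 3.20 and the others 2.67 to 2.75. The mean of Mknk1 and Mknk2 had a ratio of 0.855, with R3 the highest inhibitor mouse for both genes (4.11 for each).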

How the results depend on the processing

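Against 3 genes lower and 0 higher, 1 gene (Map4k5) was called higher with a trended and robust variance, array weights, repeated quantile normalization, cyclic loess, the dimmest 25% of rows dropped, and the replicate block. Lower calls numbered 5 with array weights or with the dimmest rows dropped, where 38 of the 41 genes remained, and 408 transcript clusters were then lower, against 260. Ordinary least squares without shrinkage called 0 genes (14 at an unadjusted p under 0.05), and 1 transcript cluster lower and 2 higher. Leaving out each mouse gave 0 to 5 genes lower, 0 to 1 higher, 2 to 619 transcript clusters lower and 0 to 416 higher, and a median of the 41 genes of -0.18 to -0.074; cyclic loess gave -0.073. With the replicate block, 4 genes were lower and 1 higher, and 569 transcript clusters lower and 395 higher, against 260 and 234. Deviations from the group means had correlations of 0.10 for R2 with V2, -0.13 for R3 with V3 and -0.03 for R4 with V4. R2 correlated best with V2, whereas R3 and R4 correlated best with a mouse of another number. So few mice cannot settle whether shared numbers pair them. Medians near 0 turned above 0 for the MAP3K tier (0.011 with quantile normalization, 0.025 with cyclic loess, 0.058 with the replicate block or without R1, 0.086 without R2), the MAP kinase tier (0.0015 to 0.024 without R3, V3 or V4) and the genes of p38 and JNK together (0.027 with cyclic loess). Signs also turned in 4 of the genes named. Map3k8 was 0.011 with quantile normalization, 0.025 with cyclic loess and -0.25 to 0.17 with a mouse left out (above 0 without R2 or V3), Map3k7 was -0.11 to 0.30 (below 0 without R4 or V2), Map3k5 -0.30 to 0.56 (below 0 without V3 or V4) and Mapk8 -0.27 to 0.086 (above 0 without V4). Map2k3, Mapk13 and Mknk2 kept their direction in all 18 alternatives, with adjusted p of 0.0077 to 0.205. The cause of these shifts was not tested.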
